A study of Mus musculus with 36 samples.

Results

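The comparison described here sets wild-type (WT) bone marrow monocytes labelled Ly6C-intermediate (Ly6Cint, 3 libraries) against those labelled Ly6C-high (Ly6Chi, 3 libraries), both taken at day 0, across every gene of the expression table. The 6 libraries were grouped by their labels alone, out of 36 samples in the series. The comparison and its gene lists were chosen with earlier results of these data known. Counts within a list therefore describe its members and are not a test of the list. RNA had been sequenced from monocytes that were sorted by flow cytometry on surface Ly6C, from WT mice and from mice labelled Irf8_cKO, a conditional knockout of Irf8. Day 0 cells (called BMM in the labels) had been given M-CSF, while osteoclast cultures (OC) had 20 ng/ml M-CSF with 40 ng/ml RANKL for 4 days. The genotype of the WT cells is written cWT in the treatment label and gWT in the column headers of the expression table. No source used here gives the Cre driver, the age or the number of mice. The 3 libraries of a group may therefore be technical replicates, and a p-value then speaks only for the scatter of these samples. Mice of both sexes had been used in the study.

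Ly6C is a small membrane-anchored surface protein, encoded in mice by Ly6c1 and Ly6c2, whose amount separates classical monocytes (high) from non-classical, patrolling monocytes (low). Classical monocytes leave the marrow for inflamed tissue, where they become macrophages or dendritic cells. Monocytes are also precursors of osteoclasts, the cells that resorb bone, which form when M-CSF and RANKL act together. Type I interferons, which signal through a receptor shared by all of them to a complex that holds the factor IRF9, switch on a common set of antiviral genes in such cells.

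The deposited values are normalised levels on a log2 scale, in which 3.90 stands for 0 reads. Reads recovered from the steps between low values gave 37936519, 26901449 and 39468019 reads in the Ly6Chi libraries and 50633175, 55045035 and 40186988 in the Ly6Cint libraries. Every difference below is the log2 mean of the Ly6Cint libraries minus that of the Ly6Chi libraries, with its standard error (SE) from a limma fit, and called means a Benjamini-Hochberg adjusted p under 0.05 over the 38873 genes tested. Rank correlations were taken across the 11131 genes with a mean of at least 100 reads over the 6 libraries. They were 0.975 to 0.988 among Ly6Chi libraries, 0.988 to 0.992 among Ly6Cint libraries and 0.915 to 0.946 between the groups. Genes are not independent replicates.

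Ly6c2, which held nearly all Ly6C reads, went against the subset labels. Its level was 9.86, 9.82 and 9.98 in the libraries labelled Ly6Chi and 13.47, 13.53 and 13.62 in those labelled Ly6Cint. The groups did not overlap, and the difference was 3.65 ± 0.19 (SE, limma adjusted p = 6.49e-14), or 13.8-fold in RPM (reads on a gene per 1000000 reads of its library). For this single gene an exact permutation test over the libraries (two-sided) gave 0.1, the smallest p that 3 against 3 libraries allow. The WT libraries labelled Ly6C-negative, at 12.26 ± 0.32 (SD, n = 2), were also above those labelled Ly6Chi. Ly6c1, the near-identical neighbour on chromosome 15, had at most 6 reads in each of the 6 libraries, and counting could have divided reads between the pair. Surface protein, on which the sort rests, was not measured in these files, so group names below are those of the labels. Irf8, the gene named in the knockout label, was 13.60, 13.50 and 13.56 in Ly6Chi and 13.31, 13.43 and 13.41 in Ly6Cint libraries, and it was not called between them (-0.17 ± 0.08, limma adjusted p = 0.173), though quantile normalization called it lower (-0.33, limma adjusted p = 0.00627).

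Ly6Cint libraries were higher in 3313 genes (8.52% of those tested) and lower in 2758 (7.09%), which together make 15.6%. Among the 11131 genes with a mean of at least 100 reads over the 6 libraries, 24.2% were higher and 13.7% were lower in the same fit. At 2-fold or more, 839 of these well-read genes were higher and 90 were lower. The median difference was -0.13 over all genes tested and 0.03 over the well-read ones. This balance depends on the scaling chosen. Rescaling each library by its median over all genes gave 4409 higher and 1017 lower (81.3% higher, against 54.6% as deposited) and moved the median of all genes to 0.07. Rescaling by the median over genes with reads in every library, chosen after seeing the data, gave 3303 and 2772 (54.4% higher). Quantile normalization gave 2915 and 3555.

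**Figure D1:**
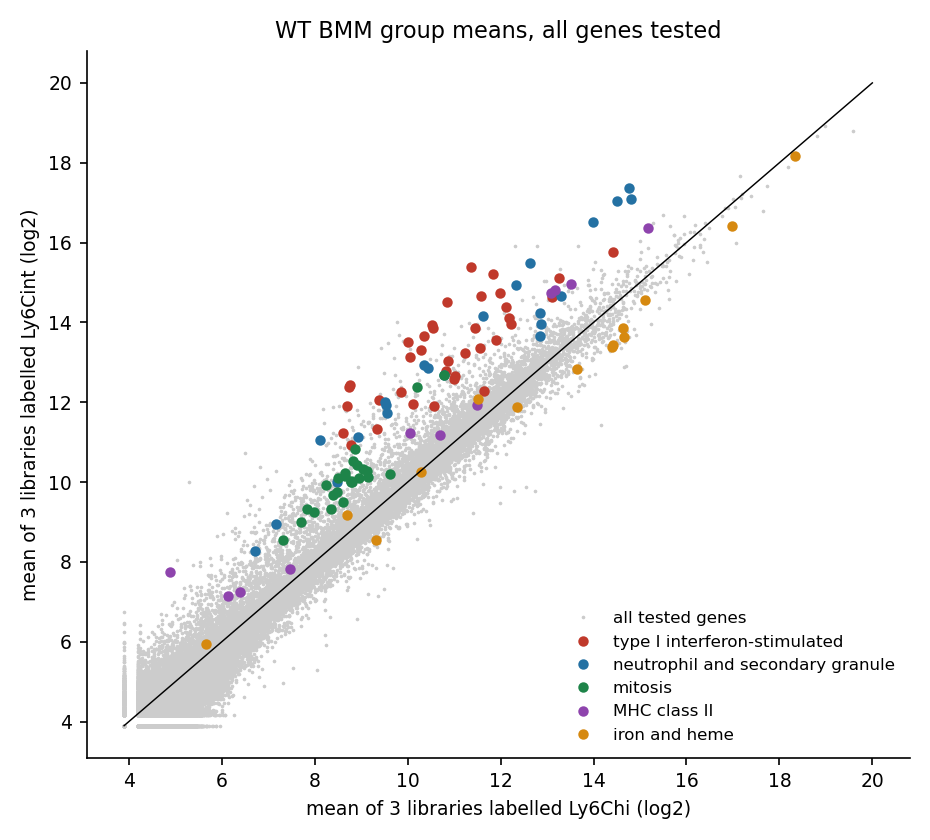
Mean level of each tested gene in the 3 WT BMM libraries labelled Ly6Chi (horizontal axis, log2) against the 3 labelled Ly6Cint (vertical axis, log2), with 5 gene lists coloured and the line of equal levels drawn. Interferon-stimulated, neutrophil and mitosis genes all lie above the line, and most iron and heme genes lie below it.

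Classical monocyte markers were mostly higher in the Ly6Cint libraries: of 17 measured, 12 were higher and 2 lower, with a median difference of 1.96. Ms4a4c, a member of the Ms4a family of membrane proteins, had 9.62, 9.27 and 9.85 in Ly6Chi and 13.33, 13.52 and 13.60 in Ly6Cint libraries (3.91 ± 0.24). Plac8 (3.50 ± 0.33) and Chil3, which encodes a chitinase-like protein of myeloid cells (3.14 ± 0.27), differed in the same direction. Every Ly6Cint library exceeded every Ly6Chi library for these genes. Ccr2, the chemokine receptor that classical monocytes need to leave the marrow, was 13.22, 12.69 and 13.12 against 14.02, 14.10 and 14.16, a difference of 1.08 ± 0.13. The coagulation factor gene F13a1 (-0.92) and Mgst1 (-0.61) were lower. Lyz2, the lysozyme gene of myeloid cells, stood at 18.90, 19.01 and 19.01 against 18.86, 18.98 and 18.90 and was not called (-0.06 ± 0.07, limma adjusted p = 0.638).

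**Figure D2:**
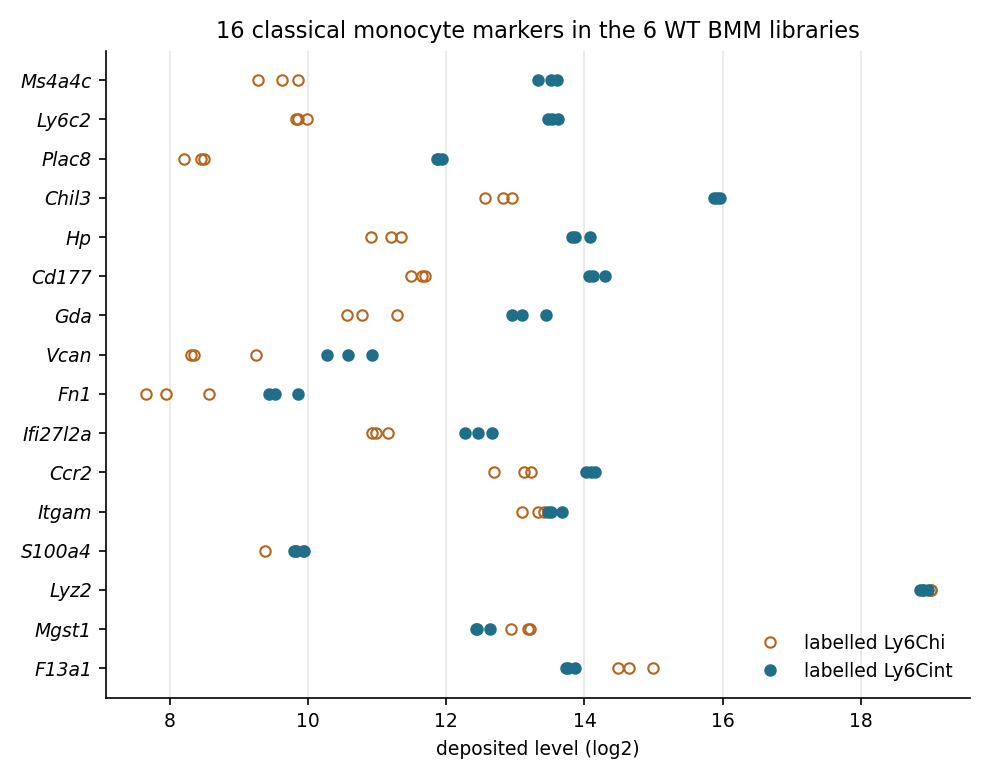
Level of 16 of the 17 classical monocyte markers in each WT BMM library (horizontal axis, deposited log2 level), with open circles for the 3 libraries labelled Ly6Chi and filled circles for the 3 labelled Ly6Cint. Ly6c2 lies between 9.82 and 9.98 in the first and between 13.47 and 13.62 in the second.

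Of 18 non-classical monocyte markers, 11 were also higher and 3 lower (median 0.58). Spn, which encodes the sialophorin CD43, was 9.76, 9.71 and 9.76 against 12.28, 12.18 and 12.21 (2.48 ± 0.11). Fcgr4, an activating receptor for IgG (1.35 ± 0.10), and Cd300e (2.47 ± 0.17) were higher too. Cd36, a scavenger receptor for lipids, went the other way, from 14.63, 14.64 and 14.68 down to 12.82, 12.99 and 12.82 (-1.78 ± 0.09). Cx3cr1, the fractalkine receptor that marks patrolling monocytes, was 12.15, 12.06 and 12.16 against 12.13, 12.29 and 12.21 and was not called (limma adjusted p = 0.563). The M-CSF receptor gene Csf1r was likewise not called (0.10 ± 0.09, limma adjusted p = 0.487).

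All 36 listed type I interferon-stimulated genes were higher in the Ly6Cint libraries, with a median difference of 2.34, and all 36 stayed called without any 1 of the 6 libraries and under quantile normalization, median rescaling and voom on recovered reads. Together they took 2458 to 3197 RPM in Ly6Chi and 13206 to 14503 in Ly6Cint libraries. Ifit2, which encodes an inhibitor of viral translation, had 11.77, 10.69 and 11.62 in Ly6Chi libraries and 15.36, 15.28 and 15.56 in Ly6Cint libraries (4.04 ± 0.21, limma adjusted p = 1.23e-13). Rsad2, which encodes the antiviral radical enzyme viperin, had 11.04, 10.41 and 11.06 against 14.47, 14.43 and 14.63 (3.67 ± 0.23). Replicate 2 of the Ly6Chi group was the lowest library for both genes, and the gap between the groups was wider than the spread within either. On a scale corrected for transcript length and depth (RPKM), Rsad2 was 11.3 in Ly6Chi and 142 in Ly6Cint libraries, and Ifit2 was 19 and 291. Mx1, which encodes a GTPase that blocks influenza virus (3.50 ± 0.20), the RNA-binding Ifit3 (3.40 ± 0.27) and Ifit1 (3.30 ± 0.20), the ubiquitin-like modifier Isg15 (3.03 ± 0.23) and the 2'-5' oligoadenylate synthetase-like Oasl1 (3.64 ± 0.15) had differences of similar size. Ifit3 and Ifit3b, Oas1a and Oas1g, and other near-identical neighbours are uncertain as single genes, because reads could be divided between copies.

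The promoters of these genes are known for the interferon-stimulated response element (ISRE), the site of the complex that holds IRF9. It was searched as GAAA, any 2 bases and GAAA again, on both strands in RefSeq windows that run from 250 bases before to 50 bases after the start of a gene (build GRCm38.p6). Of all 27025 such windows 3.49% held it, against 14 of the 27 interferon-stimulated genes that matched a window (51.9%). Of 19 listed interferon-gamma-inducible GTPases 11 matched a window, and 10 of these held it (90.9%). Among genes higher by at least 2-fold in Ly6Cint libraries 11.1% held it, and among those lower by at least 2-fold 3.74% did. A second planned motif, GAS, was searched as TTC, any 3 bases and GAA. It was in 6 of the 11 GTPases (54.5%), 7 of the 27 interferon-stimulated genes (25.9%) and 8.47% of all windows. Genes higher and lower by at least 2-fold held GAS at 9.52% and 9.45%. A match is a run of letters and was not tested as a site. The windows shown were taken from the listed interferon-stimulated genes in order of difference, passing over genes without an ISRE match. They do not show how often the leading genes hold the ISRE. Each match is in capitals: Rsad2 (chr12:26456403-26456702, minus strand, with the match 120 bases upstream of the start), Ifit3 (chr19:34583279-34583578, plus strand) and Ifit1 (chr19:34640639-34640938, plus strand), the last 2 with a pair of matches each.
Rsad2: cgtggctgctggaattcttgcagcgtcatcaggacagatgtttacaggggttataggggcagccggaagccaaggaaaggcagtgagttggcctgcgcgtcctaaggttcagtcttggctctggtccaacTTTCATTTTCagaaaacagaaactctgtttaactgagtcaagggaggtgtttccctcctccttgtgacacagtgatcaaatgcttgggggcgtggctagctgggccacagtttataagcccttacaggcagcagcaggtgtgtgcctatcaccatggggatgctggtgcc
Ifit3: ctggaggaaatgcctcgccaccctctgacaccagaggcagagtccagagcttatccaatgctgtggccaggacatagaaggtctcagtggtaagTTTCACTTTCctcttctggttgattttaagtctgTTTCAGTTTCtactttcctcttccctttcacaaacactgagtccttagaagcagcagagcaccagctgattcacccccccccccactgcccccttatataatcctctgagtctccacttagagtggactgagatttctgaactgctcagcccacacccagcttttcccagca
Ifit1: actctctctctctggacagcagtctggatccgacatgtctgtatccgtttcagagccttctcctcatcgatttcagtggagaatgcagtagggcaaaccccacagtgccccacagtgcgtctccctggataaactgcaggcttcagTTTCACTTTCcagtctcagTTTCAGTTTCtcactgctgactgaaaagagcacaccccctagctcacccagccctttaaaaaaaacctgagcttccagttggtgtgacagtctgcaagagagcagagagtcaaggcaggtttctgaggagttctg

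The transcription factors of the pathway were higher as well. Irf7, which amplifies interferon production, was 11.84, 11.48 and 12.20 in Ly6Chi and 15.01, 15.32 and 15.28 in Ly6Cint libraries (3.36 ± 0.20). Irf1 (1.02 ± 0.08) and Irf9 (0.64 ± 0.09) were also higher. Of 9 IRF family genes 6 were higher and none was lower as deposited, against 4 higher and 2 lower with quantile normalization and up to 1 lower without 1 library, and Irf3 and Irf8 were among those not called. Of 14 interferon, receptor and signalling genes, 7 were higher and 1 lower. Those higher included the feedback inhibitors Usp18 (2.67 ± 0.21), Socs1 (1.87 ± 0.12) and Socs3 (1.22 ± 0.13). The receptor genes Ifnar1 (0.13) and Ifnar2 (-0.10) were not called, nor were Ifngr2 (0.07) and the interferons Ifng and Ifna4, while Ifngr1 was lower (-0.36). Ifnb1, the gene of interferon beta, was called higher (1.74 ± 0.42) from 1, 0 and 4 reads in Ly6Chi and 21, 21 and 27 reads in Ly6Cint libraries.

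Interferon-gamma-inducible GTPases, which attack membranes around intracellular microbes, were higher at 16 of 19 genes and lower at none (median 2.19). Iigp1 was 8.79, 8.16 and 8.62 against 11.81, 11.86 and 12.04 (3.38 ± 0.20), and Gbp2 was 10.23, 9.74 and 10.16 against 13.27, 13.27 and 13.48 (3.30 ± 0.14). Gvin1, a very large GTPase with near-identical copies, scattered from 6.86 to 12.76 in Ly6Chi and from 11.46 to 14.16 in Ly6Cint libraries, and it was not called (limma adjusted p = 0.0955). Among 14 genes of MHC class I and antigen processing 13 were higher (median 0.99), led by H2-Q7 (2.11 ± 0.15), the peptide transporter Tap1 (1.91 ± 0.08) and Nlrc5, the transactivator of class I genes (1.77 ± 0.15). The classical class I gene H2-D1 was 16.71, 16.87 and 16.94 against 16.75, 16.98 and 16.87 and was not called.

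MHC class II genes, which present antigen to CD4 T cells, were higher at 9 of 11 members and lower at none (median 1.19). H2-Aa was 13.10, 12.89 and 13.24 against 14.67, 14.77 and 14.73 (1.65 ± 0.12), H2-Eb1 differed by 1.63 ± 0.12 and H2-Ab1 by 1.44 ± 0.12. The invariant chain gene Cd74 (1.19 ± 0.12) and Ciita, the master activator of class II transcription (1.19 ± 0.15), were higher in every Ly6Cint library than in any Ly6Chi library. The dendritic cell list had 11 of 19 higher and 1 lower, with a summed level of 474 to 569 against 852 to 994 RPM. Its defining genes Zbtb46 (0.42), Xcr1 (1.09) and Clec9a (1.23) were higher, and Siglech (0.01) was not called. The part of dendritic cells in the class II difference was not tested, and in bulk RNA a change in the share of a cell type and a change in RNA per cell cannot be told apart.

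**Figure D3:**
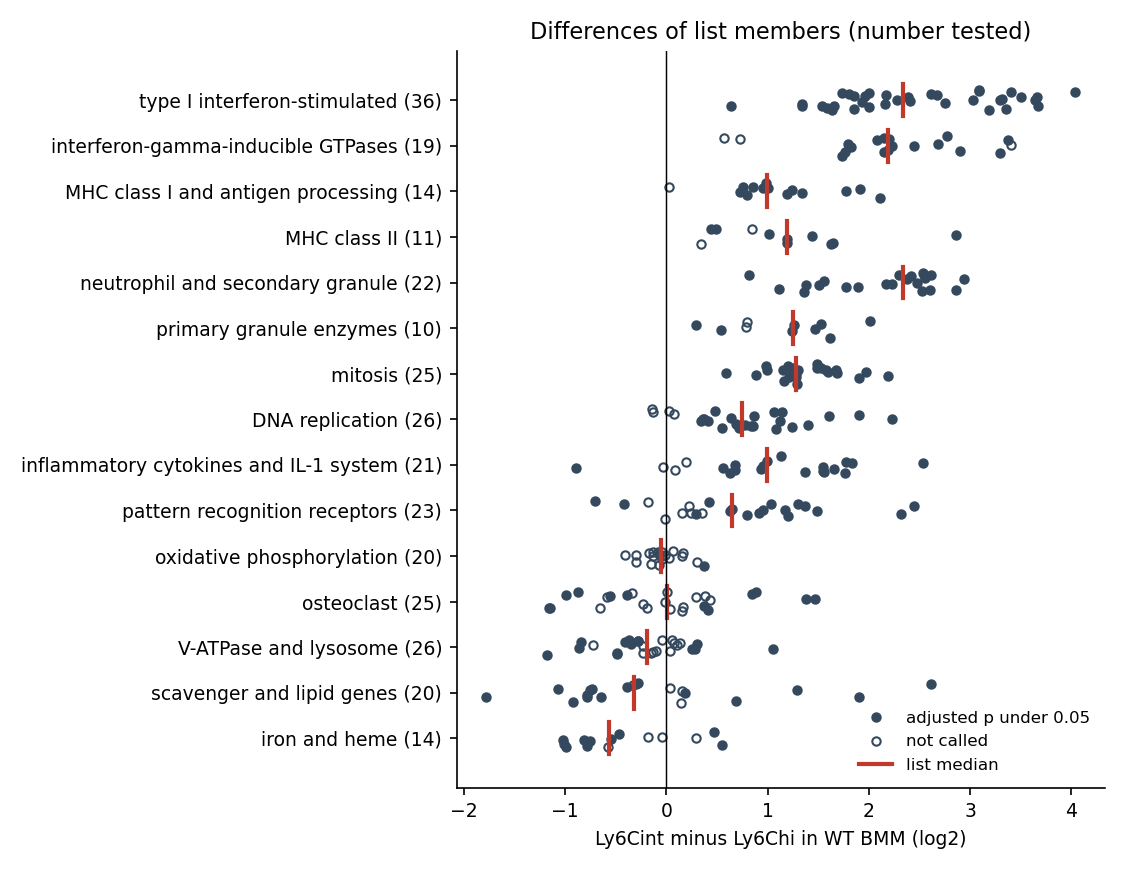
Difference between Ly6Cint and Ly6Chi WT BMM libraries (horizontal axis, log2) for each tested member of 15 gene lists, with the number of members in brackets, filled points for called genes and a red bar for the list median. The interferon-stimulated and neutrophil lists have medians of 2.34 each, and the iron and heme list has -0.56.

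Inflammatory mediators were higher at 17 of 21 genes and lower at 1 (median 0.99). Tnf was 9.98, 10.20 and 10.18 against 11.89, 11.78 and 11.97 (1.76 ± 0.09). Il1b, the gene of interleukin 1 beta, was 8.77, 8.19 and 8.37 against 11.20, 10.82 and 10.92 (2.54 ± 0.33). The antagonist Il1rn (1.66 ± 0.12) and the decoy receptor Il1r2 (1.77 ± 0.19) were higher alongside it, and only Lif was lower (-0.89). Acod1, the enzyme that makes itaconate in activated macrophages, was among the largest differences of all genes, at 9.35, 8.51 and 8.95 against 12.91, 12.76 and 13.02 (3.96 ± 0.19). Complement C3 had 12.30 ± 0.44 in Ly6Chi and 15.91 ± 0.18 in Ly6Cint libraries (SD, n = 3 each), a difference of 3.61 ± 0.23. Fgl2, a prothrombinase of macrophages, differed by 3.87 ± 0.19.

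Chemokines did not move as 1 group. Of 17 CC chemokine and receptor genes 9 were higher and none lower (10 and 2 with quantile normalization), with Ccl5, which draws in T lymphocytes, measured at 8.28, 7.74 and 8.49 against 11.75, 11.92 and 11.86 (3.67 ± 0.18). Ccl22 (3.58 ± 0.14) and the lymph node homing receptor Ccr7 (3.01 ± 0.16) were higher, but the monocyte attractants Ccl7 (0.09) and Ccl8 (0.19) were not called. Of 16 CXC genes 6 were higher and 4 lower. The interferon-induced Cxcl10 had 9.36, 9.19 and 9.71 against 13.17, 13.33 and 13.55 (3.93 ± 0.17), whereas Cxcl14 (-1.64 ± 0.09) and the stem cell niche receptor gene Cxcr4 (-0.61) were lower. Pattern recognition receptors were higher at 15 of 23 genes and lower at 2, led by Clec4e (2.45 ± 0.14), a sensor of mycobacterial glycolipid, and the DNA sensor Tlr9 (2.32 ± 0.16). Tlr4 (0.15) and Tlr7 (0.24) were not called.

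Neutrophil genes were higher at all 22 listed members (median 2.34), with and without each library. Their summed level was 3678 to 4580 RPM in Ly6Chi and 18670 to 21008 in Ly6Cint libraries. Ngp, a secondary granule protein, was 14.50, 14.86 and 14.91 against 17.43, 17.34 and 17.33 (2.61 ± 0.27). S100a9, a subunit of calprotectin, was 14.54, 14.94 and 14.91 against 17.17, 17.15 and 16.98 (2.30 ± 0.29). Lactoferrin (Ltf, 2.54 ± 0.30), lipocalin 2 (Lcn2, 2.86 ± 0.22) and the granulocyte factor Cebpe (2.48 ± 0.23) were among them, as was Ly6g, the antigen that marks neutrophils (1.51 ± 0.22, from 8.27 to 8.59 in Ly6Chi and from 9.96 to 10.01 in Ly6Cint libraries). Cd177 stands on both the classical monocyte and the neutrophil list, and neutrophils also use Hp of the classical list. The primary granule list was higher at 8 of 10 genes (median 1.25). It holds granule enzymes made by earlier myeloid precursors, but also genes that are not granule enzymes, such as Calr, Srgn, Igsf6, Ms4a3 and Cst7. Elane was 7.71 ± 0.07 against 9.18 ± 0.20 (SD, n = 3 each), a difference of 1.47 ± 0.42 whose call was lost without Ly6Chi replicate 2 (limma adjusted p = 0.0632), Ly6Chi replicate 3 (0.0513) or Ly6Cint replicate 1 (0.0739) and in voom (0.0854), and Mpo was not called (0.80 ± 0.37, limma adjusted p = 0.159). Progenitor genes had 6 of 13 higher and 2 lower, with 256 to 284 against 497 to 563 RPM. Kit, the stem cell factor receptor, was 7.31, 7.60 and 7.68 against 9.68, 9.71 and 9.80 (2.20 ± 0.14). How much of the classical, granule and progenitor differences came from other cells in the sorted fraction was not tested.

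Lists of other blood and stromal cells took few reads in both groups. The summed level of the B cell list was 49.5 to 68 RPM in Ly6Chi and 77.7 to 81.9 in Ly6Cint libraries, with 1 of 16 genes higher. The T and NK cell list took 52.2 to 63 against 52.3 to 55.8, with 4 of 17 higher and 2 lower. Mast cell, basophil and eosinophil genes took 19.3 to 21.3 against 78.8 to 104, most of it in both groups on Hdc, the histidine decarboxylase gene (2.40 ± 0.20), and 4 of 15 were higher. Stromal genes took 19.7 to 20.3 against 55.6 to 68.5, and Kdr, the gene of a VEGF receptor, was the largest difference in the list (2.68 ± 0.13), with 3 of 17 higher and 1 lower. No member of these lists was at 0 in all 6 libraries, though 5 of the B cell, 5 of the T and NK cell, 4 of the mast cell and 3 of the stromal genes had at most 3 reads in each library.

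Cell division genes were higher in Ly6Cint libraries. All 25 mitosis genes were called higher (median 1.28), again with each library left out, and they summed to 229 to 269 against 752 to 931 RPM. Top2a, the topoisomerase that untangles chromosomes, was 10.24, 10.26 and 10.08 against 12.58, 12.21 and 12.37 (2.19 ± 0.11). The spindle motor Kif11 was 8.93, 8.89 and 8.76 against 11.01, 10.76 and 10.75 (1.97 ± 0.11), and Mki67 differed by 1.90 ± 0.22. DNA replication genes were higher at 22 of 26 and lower at none (median 0.75), led by Rrm2, a subunit of ribonucleotide reductase (2.23 ± 0.09). Pcna (-0.14), Gins2 (0.03), E2f1 (-0.13) and Cdt1 (0.08) were not called. Serine, one-carbon and sterol synthesis genes were higher at 10 of 16, led by Mthfd2 (1.97 ± 0.09). Of 16 glycolysis genes 6 were higher, with a median of 0.28. On the oxidative phosphorylation list of 20 genes only 1 was higher, citrate synthase (Cs, 0.37 ± 0.07), which is an enzyme of the citric acid cycle. Quantile normalization gave 0 higher and 2 lower on that list.

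Mitosis genes are known for a pair of promoter motifs, the cell cycle homology region (CHR), searched as TTTGAA, and the NF-Y box, searched as CCAAT, both on either strand. The CHR letters were found in 14 of 20 matched mitosis promoters (70%) and in 18.1% of all promoters. CCAAT was found in 17 of 20 (85%) and in 37.9% of all. Over all genes called higher in Ly6Cint libraries, 14.7% held the CHR letters and 40.6% held CCAAT, against 12.9% and 37.9% of those called lower. At 2-fold or more the shares were 21.1% and 40% of the higher genes and 16.5% and 33.8% of the lower ones. Among listed genes whose window held the CHR letters, those with the largest differences are shown with these letters in capitals: Top2a (chr11:99024140-99024439, minus strand) and Kif11 (chr19:37376132-37376431, plus strand, where the match lies 19 bases upstream of the start).
Top2a: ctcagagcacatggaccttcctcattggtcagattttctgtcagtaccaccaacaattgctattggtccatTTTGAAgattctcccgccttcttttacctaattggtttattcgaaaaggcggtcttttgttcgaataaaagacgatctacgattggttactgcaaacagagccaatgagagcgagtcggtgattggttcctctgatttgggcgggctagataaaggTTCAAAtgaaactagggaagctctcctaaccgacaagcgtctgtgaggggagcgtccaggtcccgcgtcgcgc
Kif11: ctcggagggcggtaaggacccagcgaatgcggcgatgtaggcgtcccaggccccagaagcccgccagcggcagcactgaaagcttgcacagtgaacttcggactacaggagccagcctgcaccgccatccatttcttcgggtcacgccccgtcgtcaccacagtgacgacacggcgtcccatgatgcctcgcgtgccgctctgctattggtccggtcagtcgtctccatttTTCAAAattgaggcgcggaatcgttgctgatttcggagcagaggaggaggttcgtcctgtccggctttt

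Genes of resident macrophages went both ways, 9 of 22 higher and 9 lower (median -0.16). Higher were the scavenger receptor Marco, at 10.62, 10.40 and 10.39 against 13.12, 13.16 and 12.95 (2.61 ± 0.16), the sialoadhesin gene Siglec1 (1.95 ± 0.31) and Axl, a receptor for apoptotic cells (2.11 ± 0.10). Lower were Folr2 (-1.31 ± 0.12), the mannose receptor Mrc1 (-1.09) and Trem2 (-1.05 ± 0.11), a receptor for lipids. The genes of complement C1q were not called, with C1qb at 16.14, 16.35 and 16.38 against 16.06, 16.34 and 16.21. Gas6, which encodes a ligand of Axl, was 14.69, 14.70 and 14.70 against 12.81, 13.06 and 12.89 (-1.78 ± 0.08), so the receptor and its ligand differed in opposite directions. Mertk, the other listed receptor of this family, was lower by less (-0.46).

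Scavenger, lipid, iron and lysosome genes were more often lower. Apoe, the lipid carrier apolipoprotein E, was 19.46, 19.64 and 19.66 against 18.72, 18.86 and 18.84 (-0.78 ± 0.13). The scavenger and lipid list, most of whose reads were on Apoe, summed to 32792 to 34828 against 19257 to 20541 RPM. Of its genes 11 of 20 were lower and 5 higher, with Stab1 (-1.07 ± 0.20) and Fabp5 (-0.92 ± 0.17) among those lower and Olr1 among those higher (1.90 ± 0.19). Median rescaling left 6 of them lower and 5 higher. Iron and heme genes were lower at 8 of 14 and higher at 2 (median -0.56). The heme transporter gene Slc48a1 was 14.60, 14.66 and 14.70 against 13.56, 13.74 and 13.62 (-1.02 ± 0.09). Ferroportin (Slc40a1, -1.01 ± 0.08), heme oxygenase (Hmox1, -0.99 ± 0.09) and the transferrin receptor (Tfrc, -0.81 ± 0.07) were lower with it. Proton pump and lysosome genes were lower at 10 of 26 and higher at 4 (median -0.19), with Ctsl (-1.18 ± 0.14) and Ctsd (-0.84 ± 0.12) lower and Ctsc higher (1.05 ± 0.10). Median rescaling turned that count to 3 lower and 6 higher.

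Of 25 genes of osteoclasts 6 were higher and 6 lower (median 0.01), and 19 of the 25 were well-read. Among all well-read genes 24.2% were higher and 13.7% lower. Mmp14 (1.47 ± 0.25) and Mmp9 (1.38 ± 0.29), which encode matrix metalloproteinases, were higher, and Mmp9 stands on the neutrophil list too. Atp6v0d2, a subunit of the osteoclast proton pump, was 9.90, 10.41 and 10.09 against 8.96, 9.02 and 8.98 (-1.15 ± 0.19). Cathepsin K (Ctsk), the collagenase of osteoclasts, was 10.66, 11.93 and 11.03 against 10.10, 9.93 and 10.11 (-1.16 ± 0.39, limma adjusted p = 0.0492). Replicate 2 of the Ly6Chi group was highest for both. The Ctsk call was lost without that library (-0.79, limma adjusted p = 0.294), without Ly6Chi replicate 3 (0.0804), without any 1 Ly6Cint library (0.0987 to 0.123), with median rescaling (0.0854) and in voom (0.183). Tnfrsf11a, the RANKL receptor gene, was 11.83, 11.36 and 11.46 against 11.98, 11.89 and 11.94 and missed the threshold (0.38 ± 0.14, limma adjusted p = 0.0555). It was called higher in limma with median rescaling (0.0246), library weights (0.000329), other filters (0.0442 and 0.0414) and well-read genes alone (0.0272). The same held without Ly6Chi replicate 1 (0.00793) and in voom (0.039). Nfatc1, the master factor of osteoclast formation, was not called (0.29 ± 0.14, limma adjusted p = 0.191). Without 1 library at a time the list had 3 to 7 higher and 4 to 6 lower, and median rescaling gave 9 higher and 3 lower. A list of 9 genes drawn up for repressors of osteoclast formation had 2 higher and 3 lower. Cebpa (-1.23 ± 0.07) was among the lower, and Ikzf1 (1.13 ± 0.13) and Bcl6 (0.61 ± 0.09) were the higher. The list is mixed, since Cebpa and Eomes are not established repressors of this process, so its count does not speak for repressors as a class. Eomes, which stands on the T and NK cell list too, was also lower and had 4, 9 and 4 reads against 0 in each Ly6Cint library.

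The 15 largest falls by the naming rule included 5 well-read genes, among them Cd36 and Gas6 above. Pf4, which encodes the chemokine platelet factor 4, was 13.80, 14.51 and 14.15 against 11.31, 11.69 and 11.30 (-2.72 ± 0.23). Pf4 took 400, 665 and 512 RPM against 63.6, 83.2 and 62.4, most of the summed level of the erythroid and megakaryocyte list (403 to 672 against 64.1 to 84.9), in which the platelet gene Gp9 was not called (0.44). S1pr1, the receptor that lets cells leave tissue along sphingosine 1-phosphate, was 11.43, 11.41 and 11.38 against 9.16, 9.36 and 9.13 (-2.19 ± 0.09, limma adjusted p = 1.11e-20). Angptl4, an inhibitor of lipoprotein lipase, was 9.68 ± 0.03 against 7.85 ± 0.14 (SD, n = 3 each), a difference of -1.84 ± 0.12. The other 10 of the 15 largest falls by the naming rule were Fbxo43, Ttc6, Sowahb, Fam189a1, Lamc3, Diras1, Tacr3, Foxb1, Prdm6 and Eomes, and these rest on at most 22 reads in a Ly6Chi library and at most 1 in a Ly6Cint library.

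Genes with few reads made up a part of the falls. Of the 2758 genes called lower, 862 had a mean under 10 reads over the 6 libraries, against 179 of the 3313 called higher. At 2-fold or more the falls included 731 such genes of 876. The 1276 olfactory and vomeronasal receptor genes, which serve in sensory neurons, took 39.4, 121 and 89.7 RPM in Ly6Chi libraries and 44.5, 37.1 and 47.2 in Ly6Cint libraries. Without Ly6Chi replicate 2 the calls were 2640 higher and 1642 lower, and without Ly6Chi replicate 1 they were 3693 and 4013. Long transcripts were also higher more often, with a median difference of 0.13 among well-read genes of the longest of 4 length classes and -0.09 in the shortest class. The part of background reads and of length in the calls was not tested.

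**Figure D4:**
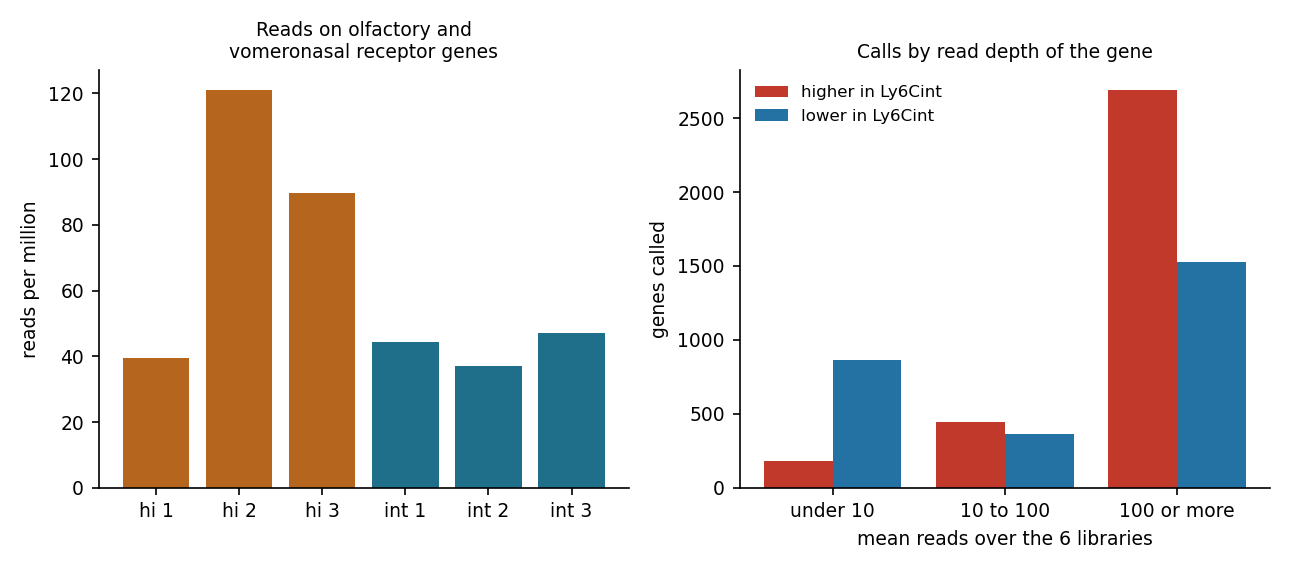
Left, RPM on olfactory and vomeronasal receptor genes in each WT BMM library (hi for Ly6Chi, int for Ly6Cint). Right, the number of genes called higher or lower in Ly6Cint by the mean reads of the gene over the 6 libraries, with 862 of the lower calls under 10 reads.

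Neither of the next comparisons shares libraries with the WT day 0 one, but both tests of a difference use its 6 libraries. The same subset comparison in day 0 libraries labelled Irf8_cKO (3 against 3) called 1569 genes higher (4.04%) and 1085 lower (2.79%), 6.83% in all. Median rescaling turned this balance to 604 higher and 1708 lower (26.1% higher, against 59.1% as deposited). With the spread taken from those 6 libraries alone, limma called 0 genes (3737 had an unadjusted p under 0.05), while voom on recovered reads called 2476. Irf8 itself was higher in every BMM library of those subsets labelled cKO (14.11 to 14.39) than in the WT ones. Where the deleted part lies is not given in the sources used here. Of the WT rises 749 (22.6%) were also called higher there, which is 47.7% of the cKO rises, and 105 were called lower. In a test of the difference between the genotype labels 3352 genes (8.62%) were called, 1858 with a larger value in WT (4.78%) and 1494 with a smaller one (3.84%). This split also depended on scaling, with 3772 and 518 after median rescaling (87.9% larger in WT, against 55.4%) and 1200 and 425 with only the compared libraries. Sex-linked genes differed between the genotype labels: the Y-linked Ddx3y was 6.12 and 5.23 in WT Ly6Chi and Ly6Cint groups, with at most 12 reads in a library, and 10.77 and 10.73 in the cKO ones, and Xist was 14.01 and 14.53 against 12.24 and 12.32. The sex makeup of the samples and the genotype cannot be told apart in this test. All 36 interferon-stimulated genes were among those with a larger value in WT. Rsad2 stood at 8.11 and 7.95 in cKO Ly6Chi and Ly6Cint libraries (-0.16, not called), and the list had 2 higher and 1 lower with a median of 0.00. All 25 mitosis genes were among them too, with Top2a at 13.78 and 13.85 in the cKO groups. Primary granule genes were higher at 9 of 10 in cKO (median 1.89), with Mpo at 11.22 against 14.14 (2.92, limma adjusted p = 1.37e-05). Neutrophil genes were higher at 10 of 22 (median 0.68), and Ly6c2 was 13.29 against 14.46 (1.16, limma adjusted p = 0.000276).

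After 4 days with RANKL, the WT cultures from the same subsets had 617 genes higher (1.59%) and 511 lower (1.31%) in the Ly6Cint origin, 2.9% in all, or 1922 genes with the spread taken from those 6 libraries alone. Of the day 0 rises 393 (11.9%) were also called higher at day 4, which is 63.7% of the day 4 rises, and of the day 0 falls 179 (6.49%), which is 35% of the day 4 falls. MHC class II genes were higher at 8 of 11 with a median of 1.24, and H2-Eb1 differed by 2.14. Axl differed by 2.47 at day 4 and 2.11 at day 0, and the change of that difference was not called (-0.36 ± 0.14, limma adjusted p = 0.138). Interferon-stimulated genes were higher at 31 of 36 with a median of 0.98. Ly6c2 was 6.38 against 6.54 (0.16, limma adjusted p = 0.959), the neutrophil list had 3 of 22 higher and no mitosis gene was called. A test of the difference between the stages called 2931 genes (7.54%), 1964 with a larger value at day 0 (5.05%) and 967 with a smaller one (2.49%), and the genes with a larger value at day 0 held 33 of the 36 interferon-stimulated, 21 of the 22 neutrophil and all 25 mitosis genes. Median rescaling gave 2332 and 365 (86.5% larger at day 0, against 67% as deposited) and quantile normalization 1619 and 1489 (52.1%). Of the class II genes, H2-Eb2 had a larger value at day 0 and H2-DMa a smaller one.

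**Figure D5:**
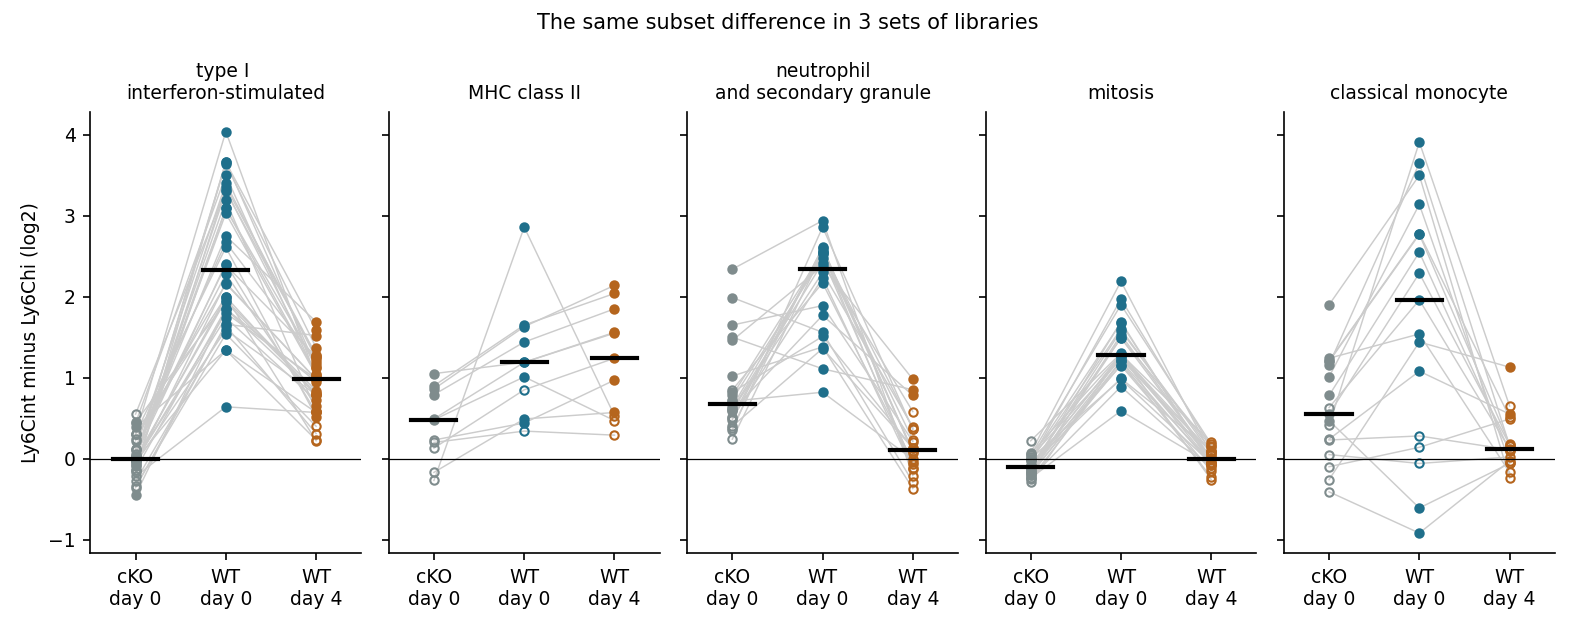
Ly6Cint minus Ly6Chi difference (vertical axis, log2) for each member of 5 gene lists in the day 0 libraries labelled Irf8_cKO, the WT day 0 libraries and the WT cultures after 4 days with RANKL, joined by grey lines, with filled points for called genes and black bars for medians. Interferon-stimulated genes have medians of 0.00, 2.34 and 0.98, and class II genes 0.48, 1.19 and 1.24.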

How the data were processed

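Per the labels, RNA was sequenced from sorted monocyte subsets and cultures of 36 samples, and 34 had a column in the deposited table. Tools listed in the submitters' processing notes, without roles, are HISAT2, DESeq2, deepTools, bcl2fastq 2.17.1 and CASAVA 1.8.4, and the build is mm10. How reads were counted, whether strand was used and which transform was applied is not given in the sources used here. The authors deposited log2 values, so no pseudocount was added. A gene was tested where at least 3 libraries reached 4.78 (5th percentile of the values over the table's minimum), which left 38873 of 38942 genes. limma 3.58.1 in R 4.3.3 was fitted to the deposited log2 values of all 34 libraries in 12 groups, which share 1 estimate of spread with 22 residual degrees of freedom, with empirical Bayes moderation and Benjamini-Hochberg adjustment. The script was tested on simulated data.

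Within a library, genes with the same number of reads share 1 value. The 60 lowest levels were taken as consecutive whole reads and the steps were followed upward. All levels checked below 5000 reads came within 0.1 of a whole number. Above 5000 reads, the number came from a straight line between reads and the unlogged value fitted at 2000 to 5000 reads, so totals and the RPM and RPKM levels of such genes are estimates. Totals were 20141941 to 55045035 reads over all libraries. Reads do not carry molecular identifiers in the sources used here.

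Genes named are the 15 largest called rises and falls of at least 1 on the log2 scale without overlap and with the higher group mean at or above 5.55, the 5 largest called members of each list, the 6 largest of each sign in each test of a difference between comparisons and among changes shared with day 4, and a fixed set of label checks. Other members are given where a list turns on them. The comparison, its members and its lists were chosen with earlier results of these data known. List symbols Ly6a2, Tm7sf4, Mb21d1, Klk1, Hba-a1, Hba-a2, Hbb-bt and Gp1bb were not analysed here, and a few list members are not reported by name. Gene positions came from GENCODE M21 and promoter windows from RefSeq (GRCm38.p6). Alternatives were another filter, quantile normalization, rescaling, library weights, voom on recovered reads, a fit on the compared libraries alone and each library left out.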

Additional observations from a re-analysis of the deposited data

Results flagged for a closer look

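The difference between Ly6Cint and Ly6Chi libraries itself differed between the genotype labels at day 0 for 3352 genes and between day 0 and day 4 in WT for 2931 genes, each by a limma test of the difference of differences.

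Between genotype labels, the largest positive values, with a larger difference in WT, were Ifi205 at 3.86, Rsad2 at 3.84, Ifit2 at 3.74, Ifi44 at 3.66, Oasl1 at 3.62 and Cxcl10 at 3.62. The largest negative values were Fam186b at -2.95, Fbxo43 at -2.91, Nhlh1 at -2.74, Sowahb at -2.70, Col17a1 at -2.60 and Xkr4 at -2.53. Fam186b had 4, 9 and 10 reads in WT Ly6Chi and 1, 0 and 0 in WT Ly6Cint libraries, and Sowahb had 3, 10 and 12 against 0 in each. Without WT Ly6Chi replicate 2, the WT day 0 calls of Nhlh1, Xkr4 and Col17a1 were lost (limma adjusted p = 0.0781, 0.0633 and 0.176). The Col17a1 call was also lost under other alternatives (limma adjusted p up to 0.206).

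Between stages, the largest positive values, with a larger difference at day 0, were Slfn4 at 4.33, Plac8 at 3.74, Cxcl10 at 3.49, Ly6c2 at 3.48, Rhou at 3.46 and Ms4a4c at 3.26. The largest negative values were S1pr1 at -2.35, Hpgd at -2.07, Bmp6 at -2.06, Pf4 at -2.05, Angptl4 at -2.05 and Mpp3 at -2.04. Bmp6 had 3, 8 and 15 reads in WT Ly6Chi and 2, 0 and 0 in WT Ly6Cint libraries at day 0, and Mpp3 had 3, 9 and 18 against 1, 1 and 0. The WT day 0 call of Bmp6 was lost without Ly6Chi replicate 3 or Ly6Cint replicate 3 (limma adjusted p = 0.0576 and 0.0544).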

How the results depend on the processing

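The WT day 0 count of 6071 genes became 10355 with library weights. Leaving out 1 library gave 4282 to 7706, the lowest without Ly6Chi replicate 2 and the highest without Ly6Chi replicate 1. Only the well-read genes gave 3103 higher and 2003 lower, and rescaling on genes with reads in every library gave 3303 and 2772, both chosen after seeing the data, as were the list counts without each library. Voom gave 3580 higher and 3855 lower. In the other comparisons, rescaling on genes with reads in every library gave 59.2% higher under the cKO label. The share of positive values was then 55.2% in the genotype test and 66.9% in the stage test. The count for libraries labelled cKO, 2654, became 1126 with library weights and 0 in limma with only the compared libraries, and 1855 to 3615 without 1 library. The day 4 count of 1128 became 622 with median rescaling, 3820 with library weights, 1922 with only the compared libraries and 745 to 913 without 1 library (750 and 745 without Ly6Cint replicates 1 and 2). The genotype test went from 3352 to 1625 with only the compared libraries and 2589 to 4363 without 1 library, and the stage test from 2931 to 5741 with library weights and 2537 to 3280 without 1 library. The cause of these shifts was not tested. For 223 named genes under 17 alternatives, 3623 of 3742 values kept direction and side of the threshold, 108 (28 genes) lost the call, 11 (3 genes) gained it and 0 reversed. No paired analysis was possible because the groups share no replicate numbers in the labels. Recovered reads above 5000 are estimates, and genes of few reads limit the falls.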

Other observations

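Gene families outside the lists, picked after their values were seen, were also compared between WT Ly6Cint and Ly6Chi libraries, with members of a mean of at least 10 reads. Among all genes with a mean of at least 100 reads, 24.2% were higher and 13.7% lower. The share among all genes of at least 10 reads was not computed. All 8 Schlafen genes were called higher (median 2.20), and in the libraries labelled Irf8_cKO 2 of them were. Slfn4, a regulator of myeloid cells, was 10.31, 9.20 and 9.80 in Ly6Chi and 14.34, 13.79 and 13.92 in Ly6Cint libraries, a difference of 4.25 ± 0.22 (SE, limma adjusted p = 3.2e-14). All 11 genes of the Ifi200 cluster, which holds DNA sensors, were higher (median 2.08), with 1 called higher under the cKO label. Of 12 Parp genes 8 were higher and 1 lower (median 0.78). Both directions occurred among Semaphorin genes, 4 of 12 higher and 5 lower, and among dual-specificity phosphatases, 7 of 19 higher and 6 lower. Calls in both directions also occurred among genes at large, so these 2 counts show nothing particular to the families. Of 17 replication-dependent histone genes 0 were higher and 3 lower in limma, while the mitosis list was higher throughout.

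The mitochondrial gene mt-Co3 scattered within groups, at 6.81, 14.95 and 6.92 in Ly6Chi and 6.84, 7.15 and 15.07 in Ly6Cint libraries, so 1 library of each group stood far above the others.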
